A study of Homo sapiens with 12 samples.

Results

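Nuclear receptors are transcription factors that bind DNA through a conserved zinc finger domain and, in most cases, change their activity when a small lipid, steroid or drug ligand occupies the ligand-binding domain. In the liver, several of them pair with a retinoid X receptor (RXR) and read metabolite levels: the liver X receptors bind oxysterols, the farnesoid X receptor binds bile acids and the pregnane X receptor binds drugs and other foreign compounds. Others act in different ways, NR5A2 as a monomer, the glucocorticoid receptor after hormone releases it from cytosolic chaperones, and NR0B2 without a DNA-binding domain, as a repressor of other receptors.

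The 10 genes described here encode such receptors: RXRA and RXRB, NR1H2 and NR1H3 (liver X receptors β and α), NR1H4 (farnesoid X receptor), NR0B2 (small heterodimer partner), NR5A2 (liver receptor homolog), NR1I2 (pregnane X receptor), ESRRA (estrogen-related receptor α) and NR3C1 (glucocorticoid receptor). They were chosen by symbol, each matching 1 of the 62475 gene identifiers in the deposited count table. All 10 passed the filter on low counts, as did 14435 genes in all.

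RNA was sequenced from HepG2, a human liver cancer cell line, in 4 groups of 3 biological replicates. The groups carried either wild-type HDAC1 (WT), the gene of a class I histone deacetylase, or HDAC1_S434A (here S434A), in which alanine takes the place of a serine, and each was grown in the absence or presence of H89, which inhibits protein kinase A (PKA). How the mutant was made, whether it is a single clone, and for how long and at what dose H89 was applied: the sources used here give none of these. No agent or allele other than these is named in the labels, and the host line is the same throughout.

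Levels below are counts relative to library size (CPM, scaled by edgeR's TMM factors), given for replicates 1, 2 and 3 in that order. Differences are log2 fold changes with their standard error (SE) from edgeR's quasi-likelihood test, with Benjamini-Hochberg adjusted p-values over all 14435 genes; a gene is said to have risen or fallen where its adjusted p was under 0.05. Of the 5 comparisons, S434A against WT without H89 and the H89 effect in WT share the same WT libraries, and the H89 effect in S434A shares its S434A libraries with the first of these. Their values are therefore set side by side and are not independent of each other.

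The libraries held 17562754 to 37187794 counts. HDAC1 itself lay between 552 and 752 CPM in the 12 libraries, which says nothing on the substitution, since a count per gene does not show a codon. All 12 hepatocyte markers examined exceeded 1 CPM, summing to 87940 to 88330 CPM in WT, 46800 to 65850 CPM in S434A, 50640 to 55440 CPM in WT with H89 and 51280 to 51810 CPM in S434A with H89. Of 8 fibroblast and stellate markers 2 exceeded 1 CPM (PDGFRB and ACTA2), their list summing to 35.9 to 79.7 CPM, and COL1A2 and DCN had no count. Of 9 matched blood, Kupffer and endothelial markers 4 did so, almost wholly through LYZ, with list sums of 4348 to 4473 CPM in WT and 1867 to 2896 CPM in the other groups, and PTPRC, CD3E and KDR had no count. The share of counts on ribosomal protein genes was 19.4% to 20.0% in WT, 9.48% to 11.5% in S434A and 7.36% to 7.92% with H89, and mitochondrially encoded genes 3.83% to 3.91% in WT and 5.73% to 8.82% elsewhere. The part of these shifts in the results below was not tested. In such bulk samples, fewer cells of a kind and less RNA per cell cannot be told apart.

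The libraries also differed in how their counts followed transcript composition. Spearman's rho between a gene's deviation and its GC content was 0.81, 0.71 and 0.13 in S434A replicates 1, 2 and 3 and between -0.07 and -0.44 in the other 9 libraries. With gene length, rho was about -0.42 to -0.43 in WT and 0.42 to 0.46 with H89. The biological coefficient of variation was 0.35 among the S434A libraries, against 0.02 in WT, 0.08 in WT with H89 and 0.06 in S434A with H89. Each receptor is therefore also given with a smooth trend on GC content and length removed from every library (called "trends removed" below). S434A replicate 1 was also left out in turn. Spread was estimated per gene over all groups together, so the SE of every comparison, also one within WT, carries that of the S434A libraries.

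Without H89, 5 of the 10 receptor genes differed between S434A and WT: RXRA and NR1H2 rose, and NR1H3, NR1H4 and ESRRA fell. Over all genes tested 58.3% were called in that comparison, 29% as higher and 29.3% as lower. H89 changed 5 receptor genes in WT, with RXRA, NR5A2 and NR3C1 up and NR1H3 and ESRRA down, where 69.7% of all genes were called, 38.8% as higher and 30.9% as lower. In S434A cells H89 changed 6, with NR1I2, NR5A2 and NR3C1 up and NR1H2, NR1H3 and ESRRA down, where 52% of all genes were called, 29.3% as higher and 22.7% as lower. These counts lie near or below the shares of all genes called. The H89 effect itself differed between S434A and WT for RXRA, NR1H3 and ESRRA, 3 of the 10, beside 48% of all genes (24% in each direction). The count of 5 in S434A against WT was 3 without WT replicate 2, WT replicate 3 or S434A replicate 2, and the count of 3 for the difference of effects was 5 without S434A replicate 1 or replicate 3. On removal of the trends 2 receptors rose and 5 fell in S434A against WT (58.3% of all genes called), 4 rose and 4 fell with H89 in WT (73.1%), 4 rose and 1 fell with H89 in S434A (44%), none was called in S434A against WT with H89, and 6 differed in their H89 effect (47.6%).

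With H89 present, none of the 10 differed between S434A and WT, in a comparison in which 0% of all genes were called. That count of 0 came from edgeR, 589 of the 14435 genes had an unadjusted p under 0.05, DESeq2 called 2 genes, limma-voom 0, or 3 once each group had its own weight, and none of these tools called a receptor of the 10. With trends removed and S434A replicate 1 left out, 12 genes were higher and 34 lower, none of them a receptor of the 10. Genes with an unadjusted p under 0.05 numbered 1593 with only the groups compared in the fit and 1827 with the weights by group. The receptors' log2 differences there ran from -0.12 for RXRB to 0.27 for NR1I2. NR1I2 had an unadjusted p of 0.034 and an adjusted p of 0.9998.

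At the study's threshold of a 2-fold change, RXRA (up) and NR1H4 (down) passed in S434A against WT without H89, where 22.9% of all genes passed. For the H89 effect in WT, RXRA, NR5A2 and NR3C1 passed upward and NR1H3 downward, beside 38% of all genes. For the H89 effect in S434A, NR5A2 and NR3C1 passed upward, beside 17.6% of all genes. The libraries of the groups did not overlap for 5 of the 10 receptors in S434A against WT without H89 (62.7% of all genes), for 8 in the H89 effect in WT (83.1%), for 7 in the H89 effect in S434A (56.4%) and for 3 in S434A against WT with H89 (17.3%). Without S434A replicate 1 or replicate 2 no receptor passed 2-fold in S434A against WT, without any WT library only RXRA did, and without S434A replicate 3 the difference of H89 effects passed 2-fold for 2 receptors in place of 1.

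Scaling bears on the H89 comparisons. The median log2 difference over all genes for H89 in WT was 0.20 with TMM factors and 0.05 with DESeq2's size factors, so receptors with small differences there can be read against either value. For H89 in S434A 4224 genes rose and 3280 fell with TMM factors, against 3566 and 4273 with DESeq2's size factors and 3568 and 4393 with upper-quartile factors. Leaving out a library also changes the factors. Without replicate 1 of WT with H89 the median over all genes was 0.05 for H89 in WT and -0.11 for H89 in S434A, against 0.20 and 0.01.

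**Figure D1:**
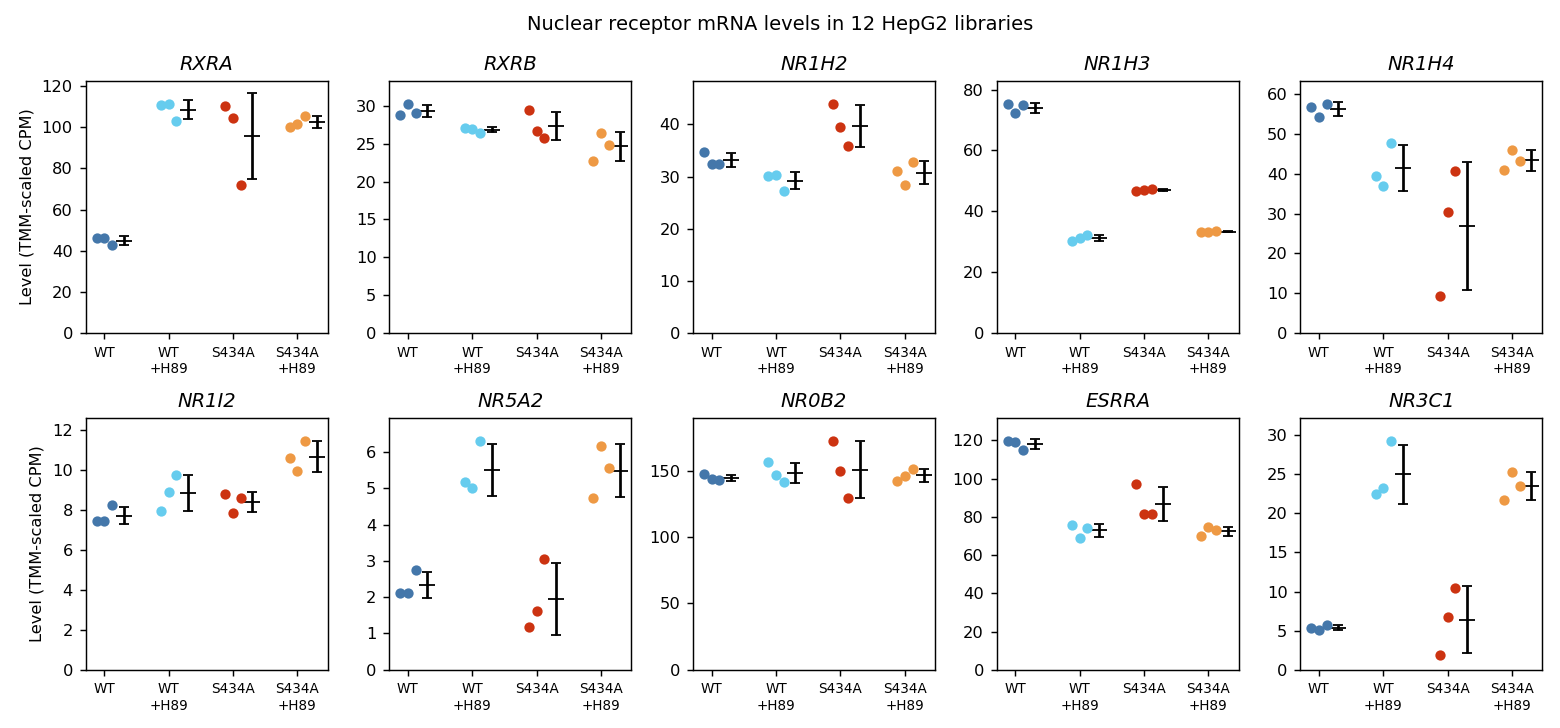
Level of each receptor mRNA (vertical axis, TMM-scaled CPM, from 0) in the 4 groups (horizontal axis). Coloured points are single libraries, replicates 1 to 3 from left to right, and the black bar beside them is the mean ± SD (n = 3). RXRA is low in the 3 WT libraries (42.5 to 46.2 CPM) and above 71 CPM in the other 9, while NR1H3 is highest in WT (72.2 to 75.3 CPM).

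RXRA encodes the main hepatic partner of the heterodimeric receptors (ENSG00000186350.12_7, hg19 chr9:137208944-137332431, plus strand). It was at 46.0, 46.2 and 42.5 CPM in WT and at 110.4, 104.5 and 71.7 CPM in S434A. With H89 it was at 110.9, 111.3 and 103.2 CPM in WT and at 100.3, 101.5 and 105.6 CPM in S434A. The WT libraries without H89 lay apart from all the others, and the 3 remaining groups overlapped, with S434A replicate 3 the lowest among them.

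RXRA thus rose by 1.09 (SE 0.13, adjusted p = 3.90e-05) in S434A against WT and by 1.27 (SE 0.13, adjusted p = 7.54e-06) with H89 in WT, a 2.13-fold and a 2.41-fold difference. In S434A the H89 difference was 0.10 (SE 0.13, adjusted p = 0.532). The 2 H89 effects differed by -1.17 (SE 0.18, adjusted p = 0.00042), the only one among the 10 genes both past 2-fold and called, beside 24.2% of all genes. RXRA is rich in GC (60.6%) and long in merged exons (12077 bases, against medians of 49.0% and 4734 over the genes tested). With trends removed the difference between S434A and WT was 0.01 (adjusted p = 0.946) and that between the H89 effects -0.02 (adjusted p = 0.893), so that neither call held, while the H89 effects were 0.32 in WT (adjusted p = 0.00022) and 0.31 in S434A (adjusted p = 0.0012). Leaving out S434A replicate 1 alone left the rise in S434A at 0.97.

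RXRB, the more widely expressed paralog that forms the same heterodimers (ENSG00000204231.11_5, hg19 chr6:33161365-33168442, minus strand), was at 28.7, 30.2 and 29.0 CPM in WT and at 29.4, 26.7 and 25.8 CPM in S434A. With H89 the levels were 27.1, 26.9 and 26.4 CPM in WT and 22.7, 26.4 and 24.8 CPM in S434A. All 12 libraries lay within 22.7 to 30.2 CPM, the narrowest relative range after NR0B2 among the group means, with the highest group mean 1.19 times the lowest. No comparison of RXRB passed the test: the differences were -0.10 in S434A against WT, -0.13 with H89 in WT and -0.15 with H89 in S434A. The H89 differences were -0.28 (adjusted p = 0.0091) in WT and -0.24 (adjusted p = 0.025) in S434A with DESeq2's size factors in edgeR, past the threshold, and with trends removed the difference between S434A and WT was -0.45 (adjusted p = 0.00039) and that between the H89 effects 0.34 (adjusted p = 0.028). SLC39A7, at 247 CPM on average, lies on the opposite strand and shares 5.67% of RXRB's exonic bases. The counting is not stated to use strand, so RXRB's level is uncertain to that extent.

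Since a ratio of 2 genes within a library does not depend on the scaling of libraries, the counts per exonic base of the 2 RXR genes were set against each other. RXRA stood at 0.517, 0.493 and 0.474 times RXRB in WT and at 1.21, 1.26 and 0.897 times in S434A. With H89 the ratio was 1.32, 1.33 and 1.26 in WT and 1.43, 1.24 and 1.37 in S434A. Counts per base of merged exons were therefore higher for RXRB in the 3 WT libraries and in S434A replicate 3. They were higher for RXRA in the other 8. Merged exons of a gene can be longer than the transcripts expressed, so which mRNA was the more abundant was not tested. GC content is close for the 2 genes (60.6% and 58.5%), but RXRA is the longer (12077 against 3897 bases), so the ratio is not free of the length trend.

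The liver X receptors induce genes of cholesterol efflux and fatty acid synthesis when oxysterols accumulate. NR1H3, the form enriched in liver (ENSG00000025434.19_7, hg19 chr11:47269851-47290584, plus strand), is shown with a promoter window because it had the steadiest response of the 10 and because 1 of its 4 annotated windows holds AGGTCA, the core motif bound by many receptors of this family. The window spans 250 bases before to 50 after a RefSeq start (GRCh38.p14, chr11:47248050-47248349, plus strand), with the motif, which begins at position -140 relative to that start, in capitals.

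NR1H3: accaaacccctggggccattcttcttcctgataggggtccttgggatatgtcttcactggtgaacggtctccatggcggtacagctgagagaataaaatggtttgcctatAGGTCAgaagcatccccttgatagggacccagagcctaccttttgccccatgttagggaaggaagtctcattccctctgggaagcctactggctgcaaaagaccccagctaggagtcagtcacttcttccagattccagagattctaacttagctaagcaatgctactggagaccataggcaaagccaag

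NR1H3 was at 75.3, 72.2 and 74.8 CPM in WT and at 46.6, 47.1 and 47.2 CPM in S434A. Under H89 the levels were 30.1, 31.1 and 32.3 CPM in WT and 33.2, 33.3 and 33.4 CPM in S434A. The 4 groups did not overlap, in the order WT, S434A, S434A with H89 and WT with H89, and replicates of a group lay within 3.1 CPM of each other.

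NR1H3 fell by 0.66 (SE 0.06, adjusted p = 3.65e-06) in S434A against WT, by 1.25 (SE 0.06, adjusted p = 1.32e-08) with H89 in WT and by 0.49 (SE 0.06, adjusted p = 0.00012) with H89 in S434A. The H89 effects differed by 0.75 (SE 0.08, adjusted p = 3.61e-05), that is, the fall was larger in WT. With H89 present, the difference between S434A and WT was 0.10 (SE 0.06, adjusted p = 0.9998), although the libraries did not overlap. On removal of the trends the 3 falls were -0.95, -1.30 and -0.25 and the difference of effects 1.05. In each of these comparisons other than S434A against WT with H89, every alternative run kept the sign and passed the threshold, 24 of 24 for the 3 falls and 23 of 23 for the difference of effects. ACP2, at 13.9 CPM on average, shares 4.17% of NR1H3's exonic bases on the opposite strand.

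NR1H2, the broadly expressed liver X receptor (ENSG00000131408.15_11, hg19 chr19:50832910-50886645, plus strand), was at 34.8, 32.4 and 32.4 CPM in WT and at 43.9, 39.5 and 35.8 CPM in S434A. H89-treated cells gave 30.1, 30.2 and 27.3 CPM in WT and 31.0, 28.4 and 32.9 CPM in S434A. S434A lay above every other group, and the 2 H89 groups overlapped.

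NR1H2 rose by 0.26 (SE 0.09, adjusted p = 0.032) in S434A against WT and fell by 0.37 (SE 0.09, adjusted p = 0.0083) with H89 in S434A, and the H89 difference in WT was -0.19 (SE 0.09, adjusted p = 0.096). That difference passed the threshold in 18 of 24 alternatives, with the same sign in all 24, for example at -0.33 (adjusted p = 0.0061) with DESeq2's size factors, -0.33 (adjusted p = 0.00024) with only the 2 WT groups in the fit and -0.36 (adjusted p = 0.016) without replicate 1 of WT with H89. The rise passed the threshold in 10 of 24 alternatives, 3 of them with the opposite sign: with trends removed the difference was -0.43 (adjusted p = 0.00035). On that scale H89 in WT gave -0.62 (adjusted p = 9.90e-06), H89 in S434A -0.08 (adjusted p = 0.409) and the difference of effects 0.53 (adjusted p = 0.0013). In single omissions the rise lost its call without S434A replicate 1 (0.18, adjusted p = 0.089) or replicate 2 (0.23, adjusted p = 0.10), without WT replicate 2 or 3 (0.24 in both cases), and without any of the 6 libraries with H89 (0.23 in each). Those 6 are not part of this comparison, and without each of them the median over all genes was between -0.06 and -0.07, against -0.04. NAPSA shares 22.1% of NR1H2's exonic bases on the opposite strand but was at 0.012 CPM on average.

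Counts of NR1H3 per exonic base stood at 2.55, 2.63 and 2.72 times those of NR1H2 in WT and at 1.25, 1.40 and 1.55 times in S434A. With H89 the ratio was 1.18, 1.21 and 1.39 in WT and 1.26, 1.38 and 1.20 in S434A. NR1H3 thus had more counts per base of merged exons than NR1H2 in all 12 libraries. The margin was smaller in each of the 9 libraries outside the untreated WT group. These lengths may not be those of the transcripts expressed.

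**Figure D2:**
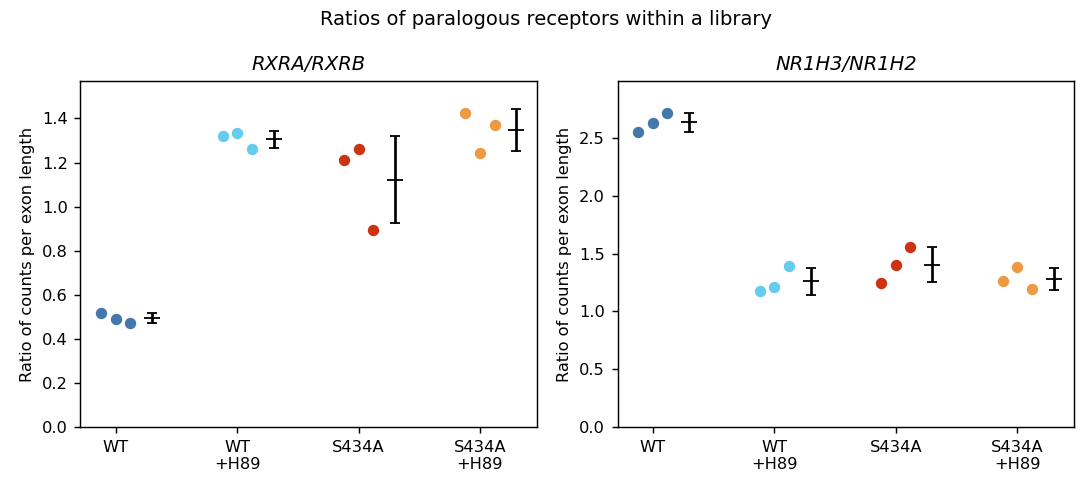
Ratio of counts per exonic base (vertical axis, from 0, no unit) of RXRA to RXRB and of NR1H3 to NR1H2 in the 4 groups (horizontal axis). Points are single libraries, replicates 1 to 3 from left to right, with the mean ± SD beside them (n = 3). The WT libraries stand apart in both panels, at 0.474 to 0.517 for RXRA to RXRB and at 2.55 to 2.72 for NR1H3 to NR1H2.

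Among known liver X receptor targets, 14 of 16 were tested. In WT cells with H89, 9 rose and 2 fell, with a median log2 change of 0.60 beside 0.20 over all genes, of which 69.7% were called. In S434A against WT 10 rose and 1 fell (median 0.76 beside -0.04, 58.3% of all genes called). With H89 in S434A 4 rose and 3 fell (median -0.05 beside 0.01, 52% of all genes called). FASN, the fatty acid synthase gene, rose with H89 in WT by 2.72 (SE 0.23, adjusted p = 1.73e-06), from 231 ± 4.63 to 1526 ± 210 CPM (SD, n = 3), and SCD, a stearoyl-CoA desaturase, rose by 1.74 (SE 0.08, adjusted p = 1.54e-08), from 567 ± 12.8 to 1888 ± 151 CPM. APOC1, an apolipoprotein of the same target list, fell by 2.22 (SE 0.06, adjusted p = 4.42e-09), from 477 ± 9.88 to 103 ± 2.34 CPM. On removal of the trends these H89 differences were 1.60 for FASN, 1.72 for SCD and -1.39 for APOC1. Of the list 10 then rose and 2 fell with H89 in WT (median 0.69 beside 0.06, 73.1% of all genes called). In S434A against WT 12 then rose and 2 fell (median 0.55 beside 0.05, 58.3% called). With H89 in S434A 6 then rose and 4 fell (median 0.18 beside -0.01, 44% called). FASN and SCD are also lipogenic genes under other regulators, so the list is not specific to NR1H3 and NR1H2.

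NR1H4 is the bile acid receptor, which restrains bile acid synthesis in part by inducing NR0B2 (ENSG00000012504.15_8, hg19 chr12:100867486-100958192, plus strand). Its promoter window (RefSeq, GRCh38.p14, chr12:100503110-100503409, plus strand) is shown with 1 window of NR5A2 (chr1:200027460-200027759, plus strand). They are the other windows of these genes that hold AGGTCA, in NR1H4 as its reverse complement TGACCT. The motif is in capitals and begins at positions -230 and -84 relative to the annotated starts.

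NR1H4: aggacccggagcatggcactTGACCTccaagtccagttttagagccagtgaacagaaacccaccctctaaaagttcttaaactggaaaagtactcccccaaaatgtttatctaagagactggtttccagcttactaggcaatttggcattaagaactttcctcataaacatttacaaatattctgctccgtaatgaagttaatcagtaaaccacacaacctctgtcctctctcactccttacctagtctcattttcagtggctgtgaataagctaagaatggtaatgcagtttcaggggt

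NR5A2: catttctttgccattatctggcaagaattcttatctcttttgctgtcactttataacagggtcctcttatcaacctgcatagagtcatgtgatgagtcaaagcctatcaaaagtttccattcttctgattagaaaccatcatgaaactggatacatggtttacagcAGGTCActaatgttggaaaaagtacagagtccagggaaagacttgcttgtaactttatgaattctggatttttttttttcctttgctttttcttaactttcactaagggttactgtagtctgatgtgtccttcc

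Promoter windows of 9 of the 10 genes matched in the RefSeq table, 22 windows in all. AGGTCA, searched on both strands, was in 3 of them, and 13.8% of the 35116 windows of the whole table hold it. The extended motif TCAAGGTCA of monomeric receptors (0.353% of all windows; it contains AGGTCA), the inverted repeat of AGGTCA with 1 base between its copies (0%) and the direct repeat with 4 bases between them (0.0199%) were in none of the 22. A match is a description of letters only. The 3 genes with a window that holds it differed in response: NR1H3 fell with H89 in WT, NR5A2 rose and NR1H4 did not pass. Another annotated window of NR5A2 (chr1:200042341-200042640) does not hold it. Which annotated start these cells use was not tested.

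NR1H4 was at 56.8, 54.3 and 57.6 CPM in WT and at 9.31, 30.5 and 40.7 CPM in S434A. In the presence of H89 it reached 39.5, 36.9 and 47.9 CPM in WT and 40.9, 46.1 and 43.1 CPM in S434A. The S434A libraries spread over a wider range than the other 9 together, and WT without H89 lay above all other libraries.

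NR1H4 fell by 1.07 (SE 0.38, adjusted p = 0.032) in S434A against WT. Without S434A replicate 1 the fall was -0.66 (adjusted p = 0.00034), without replicate 3 it was -1.50 (adjusted p = 0.0071), and without S434A replicate 2 or any of the WT libraries the adjusted p rose past 0.05 (fall of -1.05 to -1.19). The call was also lost with only the groups compared in the fit (-0.855, adjusted p = 0.197) and without the filter on low counts (-1.10, adjusted p = 0.102). With trends removed the fall was -0.40 (adjusted p = 0.044). The H89 differences were -0.44 (SE 0.37, adjusted p = 0.307) in WT and 0.69 (SE 0.38, adjusted p = 0.146) in S434A, and they differed by 1.13 (SE 0.53, adjusted p = 0.104). Removing the trends gave -0.38 (adjusted p = 0.039), 0.01 (adjusted p = 0.975) and 0.38 (adjusted p = 0.164) for these, and fitting only the 2 WT groups gave -0.59 (adjusted p = 1.90e-06) for H89 in WT. Without S434A replicate 1 the H89 difference in WT was -0.44 with an adjusted p of 0.0017 and the difference of effects 0.72 with an adjusted p of 0.0018. Without S434A replicate 3 the H89 difference in S434A was 1.12 (adjusted p = 0.026) and the difference of effects 1.57 (adjusted p = 0.023). NR1H4 transcripts are low in GC (40.6%), and in S434A against WT the median over all genes rose from -0.64 in the decile of lowest GC to 0.61 in the highest.

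NR0B2, the repressor without a DNA-binding domain that bile acid signalling induces (ENSG00000131910.5_6, hg19 chr1:27237980-27240466, minus strand), was at 147.4, 144.1 and 143.1 CPM in WT and at 172.8, 150.1 and 129.7 CPM in S434A. With H89 it was at 156.7, 146.6 and 141.5 CPM in WT and at 142.1, 146.4 and 151.4 CPM in S434A. The 4 groups overlapped, and the highest group mean was 1.04 times the lowest. The differences were 0.06 (SE 0.09, adjusted p = 0.606) in S434A against WT, 0.03 (SE 0.09, adjusted p = 0.752) with H89 in WT and -0.04 (SE 0.09, adjusted p = 0.722) with H89 in S434A. NR0B2 is the shortest of the 10 (1165 bases). With trends removed the same differences were 0.34, 0.75 and 0.36, all past the threshold (adjusted p = 0.00052, 2.40e-07 and 0.00086). The H89 effects then differed by -0.39 (adjusted p = 0.0028). With only the groups compared in the fit, the H89 difference in WT was -0.11 (adjusted p = 0.045), past the threshold downward. Whether NR0B2 is level, raised or, with H89 in WT, lowered thus depends on the fit.

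Of 22 genes of bile acid synthesis, conjugation and transport, 16 were tested. With H89 in WT 7 rose and 6 fell (median -0.21 beside 0.20 over all genes, of which 69.7% were called). In S434A against WT 8 rose and 5 fell (median 0.29 beside -0.04, 58.3% of all genes called). With H89 in S434A 3 rose and 7 fell (median -0.31 beside 0.01, 52% of all genes called). KLB, the coreceptor for FGF19, rose with H89 in WT by 1.41 (SE 0.11, adjusted p = 8.20e-07), from 73.8 ± 2.15 to 196 ± 4.99 CPM. SLC27A5, the bile acid CoA ligase, fell by 1.73 (SE 0.10, adjusted p = 5.58e-08), from 51.9 ± 1.39 to 15.6 ± 1.52 CPM, and SLC51B, a subunit of the basolateral bile acid transporter, fell by 2.10 (SE 0.20, adjusted p = 3.56e-06), from 21.7 ± 1.36 to 5.07 ± 0.77 CPM. With GC and length trends removed SLC51B was at -1.26, KLB at 1.14 and SLC27A5 at -2.22. On that scale 7 of the list rose and 6 fell with H89 in WT (median 0.05 beside 0.06, 73.1% of all genes called). In S434A against WT 8 then rose and 5 fell (median 0.13 beside 0.05, 58.3% called). With H89 in S434A 2 then rose and 7 fell (median -0.29 beside -0.01, 44% called).

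NR5A2 encodes a monomeric receptor of bile acid and cholesterol genes that NR0B2 can repress (ENSG00000116833.14_6, hg19 chr1:199996742-200146548, plus strand). It had the lowest counts per exonic base of the 10. Its levels were 2.12, 2.12 and 2.74 CPM in WT and 1.18, 1.61 and 3.06 CPM in S434A. Under H89 it stood at 5.17, 5.02 and 6.32 CPM in WT and at 4.74, 6.18 and 5.56 CPM in S434A. All 6 libraries with H89 lay above all 6 without it.

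NR5A2 rose with H89 by 1.24 (SE 0.26, adjusted p = 0.0015) in WT and by 1.48 (SE 0.28, adjusted p = 0.0020) in S434A, and the effects differed by 0.25 (SE 0.38, adjusted p = 0.632). In S434A against WT the difference was -0.25 (SE 0.29, adjusted p = 0.492), and without S434A replicate 3 it was -0.74 (adjusted p = 0.018). The difference of effects without that library was 0.74 (adjusted p = 0.045). Leaving out S434A replicate 1 gave 0.02 (adjusted p = 0.964) for S434A against WT and 1.22 for the H89 effect in S434A. On removal of the trends the H89 rises were 0.53 (adjusted p = 0.0059) in WT and 0.38 (adjusted p = 0.085) in S434A, the latter no longer a call. NR5A2 is low in GC (40.0%) and long in merged exons (7543 bases).

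Known NR5A2 targets, 10 of 11 tested and NR0B2 among them, moved in both directions. With H89 in WT 2 rose and 3 fell (median -0.12 beside 0.20 over all genes, of which 69.7% were called). In S434A against WT 3 rose and 1 fell (median 0.17 beside -0.04, 58.3% of all genes called). With H89 in S434A none rose and 6 fell (median -0.49 beside 0.01, 52% of all genes called). APOA1, the main apolipoprotein of high-density lipoprotein and also a hepatocyte marker above, fell in WT by 1.98 (SE 0.05, adjusted p = 4.42e-09), from 8474 ± 2.51 to 2147 ± 47.2 CPM. APOM, an apolipoprotein that carries sphingosine 1-phosphate, fell by 1.14 (SE 0.08, adjusted p = 4.30e-07), and SCARB1, the receptor for high-density lipoprotein, rose by 1.14 (SE 0.14, adjusted p = 3.22e-05). With the trends taken out these were smaller, at -1.37 for APOA1, -0.36 for APOM and 0.63 for SCARB1, all still called.

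NR1I2, the receptor of drugs and other foreign compounds (ENSG00000144852.18_5, hg19 chr3:119499331-119537332, plus strand), was at 7.45, 7.45 and 8.22 CPM in WT and at 8.77, 7.81 and 8.57 CPM in S434A. With H89 it was at 7.91, 8.86 and 9.71 CPM in WT and at 10.6, 9.94 and 11.5 CPM in S434A. S434A with H89 lay above every other group, and the other 3 overlapped. It rose with H89 in S434A by 0.35 (SE 0.11, adjusted p = 0.025), a call that 13 of 24 alternatives did not keep, among them DESeq2 (0.25, adjusted p = 0.074) and single omissions of S434A replicate 2 (0.17), of any S434A library with H89 (0.16 to 0.27) and of any WT library with H89 (0.22). In these omissions the median over all genes for H89 in S434A also moved, from 0.01 to between -0.10 and -0.12. In WT the H89 difference of NR1I2 was 0.20 (SE 0.11, adjusted p = 0.141) and in S434A against WT it was 0.12 (SE 0.11, adjusted p = 0.382). Removing the trends gave 0.43 (adjusted p = 0.0060) for H89 in S434A, 0.13 (adjusted p = 0.296) for H89 in WT and -0.04 (adjusted p = 0.775) for S434A against WT.

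Of 16 known pregnane X receptor targets 9 were tested. With H89 in WT 3 rose and 3 fell (median -0.31 beside 0.20 over all genes, of which 69.7% were called). In S434A against WT 1 rose and 4 fell (median -0.49 beside -0.04, 58.3% of all genes called). With H89 in S434A 4 rose and 3 fell (median -0.13 beside 0.01, 52% of all genes called). The targets with the smallest p in WT were phase II enzymes: GSTA1 fell by 2.69 (SE 0.16, adjusted p = 7.93e-08) from 250.4 ± 0.93 to 38.7 ± 5.19 CPM, and its neighbour GSTA2 fell by 3.25 (SE 0.20, adjusted p = 1.28e-07). SULT2A1, a sulfotransferase of steroids and bile acids, fell by 2.00 (SE 0.15, adjusted p = 7.05e-07), from 1229 ± 29.4 to 308 ± 21.7 CPM. With the trends taken out they were at -1.83, -2.28 and -1.36 for GSTA1, GSTA2 and SULT2A1. GSTA1 and GSTA2 are near-identical in sequence, so that reads may be shared between them and their separate values are uncertain.

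ESRRA encodes an orphan receptor that, with the coactivator PPARGC1A, drives genes of oxidative metabolism (ENSG00000173153.16_7, hg19 chr11:64072969-64084215, plus strand). It was at 119.9, 119.0 and 114.9 CPM in WT and at 97.2, 81.7 and 81.7 CPM in S434A. H89-treated cells held it at 75.6, 69.1 and 74.3 CPM in WT and at 70.0, 74.8 and 72.9 CPM in S434A. WT lay above S434A, S434A above both H89 groups, and the H89 groups overlapped.

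ESRRA fell by 0.44 (SE 0.08, adjusted p = 0.00046) in S434A against WT, by 0.69 (SE 0.08, adjusted p = 1.19e-05) with H89 in WT and by 0.26 (SE 0.08, adjusted p = 0.016) with H89 in S434A. The H89 effects differed by 0.43 (SE 0.11, adjusted p = 0.0066), the larger fall being in WT. With only the groups compared in the fit the calls on S434A against WT (-0.23, adjusted p = 0.079) and on H89 in S434A (-0.26, adjusted p = 0.10) were lost. With trends removed the first 2 falls were -0.87 and -0.79 and the difference of effects was 0.87, while the H89 difference in S434A was 0.07 (adjusted p = 0.491), without a call and of the opposite sign. TRMT112, at 195 CPM on average, shares 9.15% of ESRRA's exonic bases on the opposite strand, and ESRRA has processed pseudogenes that can take its reads, so its level is uncertain to that extent.

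Of 16 known ESRRA targets of mitochondrial metabolism 15 were tested. With H89 in WT 3 rose and 7 fell (median -0.06 beside 0.20 over all genes, of which 69.7% were called). In S434A against WT 4 rose and 8 fell (median -0.55 beside -0.04, 58.3% of all genes called). With H89 in S434A 2 rose and 7 fell (median -0.19 beside 0.01, 52% of all genes called). COX5B, a subunit of cytochrome c oxidase, fell with H89 in WT by 1.79 (SE 0.07, adjusted p = 8.40e-09), from 594 ± 21.9 to 172 ± 7.54 CPM. ATP5F1B, the catalytic β subunit of ATP synthase, fell by 1.25 (SE 0.05, adjusted p = 7.64e-09), and SDHB, the iron-sulfur subunit of succinate dehydrogenase, by 1.40 (SE 0.07, adjusted p = 3.45e-08). With the trends taken out the falls were smaller, at -0.99 for COX5B, -0.67 for ATP5F1B and -0.91 for SDHB, all still called. Of the list 4 then rose and 9 fell with H89 in WT (median -0.38 beside 0.06, 73.1% of all genes called). In S434A against WT 4 then rose and 10 fell (median -0.36 beside 0.05, 58.3% called). With H89 in S434A 1 then rose and 5 fell (median -0.12 beside -0.01, 44% called).

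NR3C1, the glucocorticoid receptor (ENSG00000113580.15_9, hg19 chr5:142657496-142815077, minus strand), had the largest difference of the 10. It was at 5.40, 5.07 and 5.70 CPM in WT and at 1.94, 6.70 and 10.5 CPM in S434A. With H89 it was at 22.5, 23.2 and 29.3 CPM in WT and at 21.7, 25.3 and 23.5 CPM in S434A. All 6 libraries with H89 lay above all 6 without it, and the S434A libraries without H89 extended below and above the WT ones.

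NR3C1 rose with H89 by 2.21 (SE 0.42, adjusted p = 0.00074) in WT, a 4.63-fold difference, and by 1.88 (SE 0.42, adjusted p = 0.0048) in S434A, a 3.68-fold difference. On removal of the trends the rises were 1.36 (adjusted p = 3.95e-08) and 0.68 (adjusted p = 0.00023), and with only the 2 S434A groups in the fit the rise in S434A was 1.88 with an adjusted p of 0.058. The effects differed by -0.33 (SE 0.57, adjusted p = 0.665), and by -0.77 (adjusted p = 0.0098) without S434A replicate 1. S434A against WT gave 0.24 (SE 0.42, adjusted p = 0.644), which became 0.68 (adjusted p = 0.0047) without S434A replicate 1 and -0.33 (adjusted p = 0.476) without replicate 3. Removing the trends gave 0.55 (adjusted p = 0.00078) for S434A against WT and -0.68 (adjusted p = 0.0012) for the difference of effects, both calls that the counts as deposited did not give. NR3C1 is the lowest in GC of the 10 (39.1%) and long in merged exons (9161 bases). The median H89 difference in S434A over all genes ran from 1.17 in the decile of lowest GC to -0.31 in the highest.

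Of 14 glucocorticoid receptor targets tested of 16, 5 rose and 9 fell with H89 in WT (median -0.63 beside 0.20 over all genes, of which 69.7% were called). In S434A against WT 5 rose and 3 fell (median 0.13 beside -0.04, 58.3% of all genes called). With H89 in S434A 3 rose and 9 fell (median -0.56 beside 0.01, 52% of all genes called). ERRFI1, a feedback inhibitor of the EGF receptor, rose in WT by 1.07 (SE 0.10, adjusted p = 2.67e-06), from 331 ± 3.38 to 694 ± 31.2 CPM. MT2A, a metallothionein, fell by 0.90 (SE 0.07, adjusted p = 7.92e-07) and was at -0.01 (adjusted p = 0.912) with trends removed. CEBPD, a transcription factor gene, fell by 0.75 (SE 0.07, adjusted p = 4.56e-06), and by 0.46 (adjusted p = 0.00028) with trends removed. On removal of the trends 5 of the list rose and 6 fell with H89 in WT (median -0.11 beside 0.06, 73.1% of all genes called). In S434A against WT 6 then rose and 3 fell (median 0.26 beside 0.05, 58.3% called). With H89 in S434A 2 then rose and 9 fell (median -0.49 beside -0.01, 44% called).

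Of 10 chaperone and cochaperone genes that fold the glucocorticoid receptor, 1 rose and 6 fell with H89 in WT (median -0.41 beside 0.20 over all genes, of which 69.7% were called). In S434A against WT none rose and 5 fell (median -0.42 beside -0.04, 58.3% of all genes called). With H89 in S434A 3 rose and 4 fell (median -0.02 beside 0.01, 52% of all genes called). DNAJB1, an HSP40 cochaperone, fell with H89 in WT by 0.90 (SE 0.06, adjusted p = 1.98e-07). STIP1, which joins HSP70 to HSP90, fell by 0.83 (SE 0.06, adjusted p = 3.60e-07), and HSPA8, the constitutive HSP70, by 0.85 (SE 0.07, adjusted p = 1.33e-06).

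**Figure D3:**
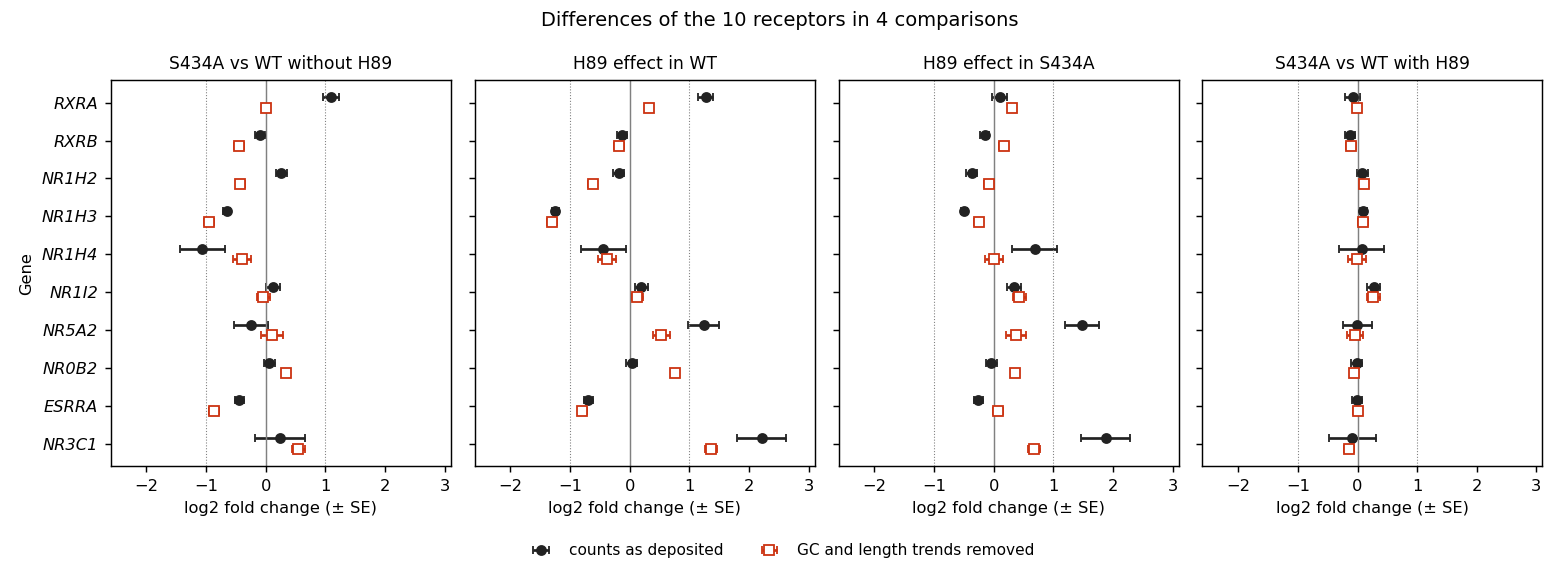
Log2 fold change ± SE (horizontal axis) of the 10 receptors (vertical axis) in 4 comparisons, from the deposited counts (filled circles) and with trends on GC content and length removed (open squares). Dotted lines mark 2-fold. RXRA in S434A against WT without H89 moves from 1.09 to 0.01 between the 2 fits, NR1H3 stays below 0 in the first 3 panels, and in the fourth all values from the deposited counts lie between -0.12 and 0.27.

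**Figure D4:**
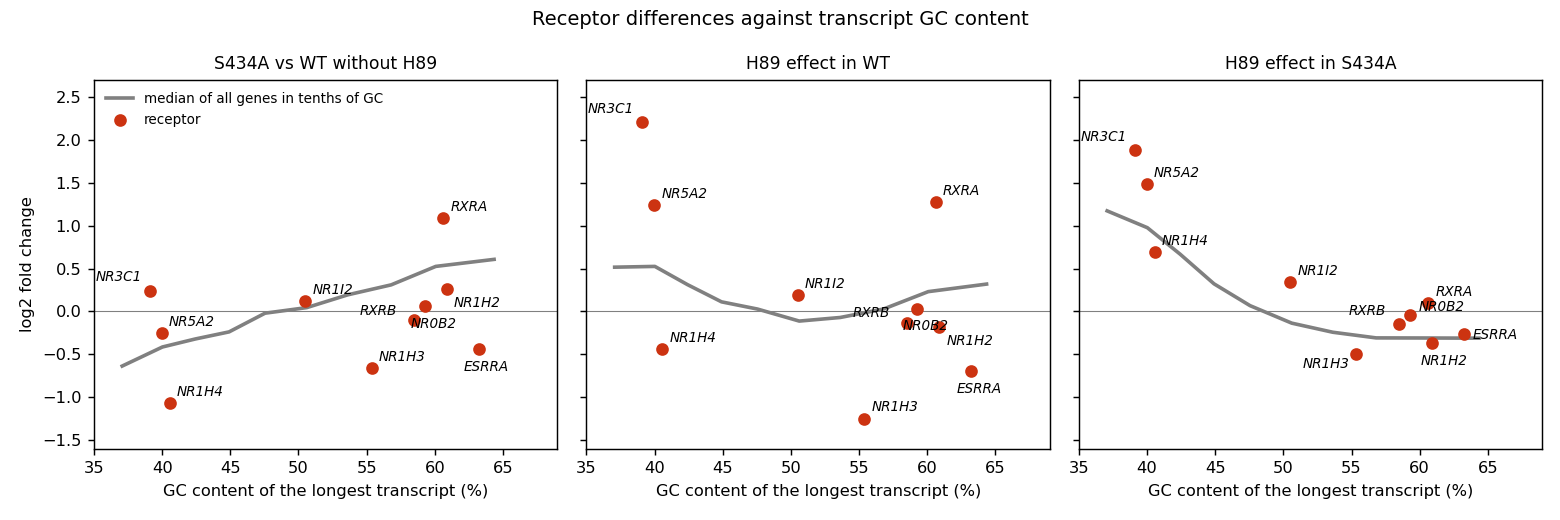
Log2 fold change (vertical axis) against GC content of the longest annotated transcript (horizontal axis, percent) in 3 comparisons. Red points are the 10 receptors and the grey line joins the medians of all genes in 10 equal groups by GC content. NR3C1, NR5A2 and NR1H4 lie at 39.1% to 40.6% GC, where the median is negative in S434A against WT and positive for H89 in S434A, and NR1H3 lies below the line in all 3 panels.

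Beyond the 10, 22 of 38 further nuclear receptor genes were tested. With H89 in WT 16 rose and 3 fell (median 1.15 beside 0.20 over all genes, of which 69.7% were called). In S434A against WT 13 rose and 1 fell (median 0.73 beside -0.04, 58.3% of all genes called). With H89 in S434A 9 rose and 2 fell (median 0.10 beside 0.01, 52% of all genes called). NR2F2 and NR2F1, the COUP transcription factors, rose with H89 in WT by 2.05 (SE 0.11, adjusted p = 3.22e-08) and 1.38 (SE 0.11, adjusted p = 6.19e-07). The orphan receptor NR6A1 rose by 1.15 (SE 0.07, adjusted p = 1.67e-07), from 24.8 ± 0.95 to 54.9 ± 0.55 CPM. The 10 receptors described here had medians of -0.05, -0.02 and 0.03 in the same 3 comparisons.

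All 24 coregulators on the list were tested, and 19 rose and 2 fell with H89 in WT (median 1.99 beside 0.20 over all genes, of which 69.7% were called). In S434A against WT 11 rose and 3 fell (median 0.70 beside -0.04, 58.3% of all genes called). With H89 in S434A 16 rose and 2 fell (median 0.96 beside 0.01, 52% of all genes called). EP300, a histone acetyltransferase and coactivator, rose in WT by 2.43 (SE 0.08, adjusted p = 4.42e-09), from 12.9 ± 0.39 to 69.5 ± 1.18 CPM. NCOA6, a coactivator in a histone methyltransferase complex, rose by 2.31 (SE 0.09, adjusted p = 5.94e-09), and PRMT1, an arginine methyltransferase that also acts as a coactivator, fell by 1.31 (SE 0.07, adjusted p = 4.18e-08). Without the GC and length trends EP300 was at 1.70, NCOA6 at 1.58 and PRMT1 at -1.47. With trends removed the median of the coregulators for H89 in WT was 0.93, with 20 up and 3 down. That of the further receptors was 0.73, with 17 up and 4 down. For S434A against WT these medians were 0.38 (14 up, 3 down) and 0.275 (10 up, 4 down), beside 0.05 over all genes (58.3% called). For H89 in S434A they were 0.43 (17 up, 1 down) and 0.26 (14 up, 2 down), beside -0.01 (44% called).

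Levels of different genes are compared here only per kilobase of merged exons, which can be longer than the transcripts expressed. On that scale NR0B2 ranked highest in all 4 groups, at 124 ± 1.95 CPM per kb in WT (SD, n = 3), and ESRRA next at 38.0 ± 0.86. In WT they were followed by NR1H3 at 16.3 ± 0.37 and NR1H4 at 15.5 ± 0.47, then RXRB at 7.52 ± 0.21, NR1H2 at 6.22 ± 0.26 and RXRA at 3.72 ± 0.17. NR1I2 at 1.43 ± 0.08, NR3C1 at 0.588 ± 0.035 and NR5A2 at 0.309 ± 0.047 closed the order.

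In WT with H89 the order after ESRRA (23.5 ± 1.12 CPM per kb) was NR1H4 at 11.4 ± 1.59, RXRA at 8.98 ± 0.38, and RXRB and NR1H3, which did not differ beyond their spread at 6.88 ± 0.08 and 6.87 ± 0.24. NR3C1, at 2.73 ± 0.41, stood above NR1I2, at 1.64 ± 0.17, the reverse of the order without H89. In S434A without H89 RXRA at 7.91 ± 1.73, NR1H2 at 7.44 ± 0.76, NR1H4 at 7.40 ± 4.42 and RXRB at 7.01 ± 0.48 did not differ beyond their spread. With H89 S434A gave RXRA at 8.48 ± 0.23, NR1H3 at 7.35 ± 0.02, and RXRB at 6.32 ± 0.48 and NR1H2 at 5.76 ± 0.42, the last pair within their spread.

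The genes whose log2 CPM over the 12 libraries most resembled that of a receptor are named as a description, since the 12 points fall into 4 groups and share depth and composition. NR1H3 was followed most closely by TACO1 and CISD3 (Pearson r = 0.998 for both), and 1276 genes had r over 0.95 with it. For NR3C1 these were NORAD and ATE1 (0.999 for both, 1186 genes over 0.95), for RXRA SETD1A and RHBDF2 (0.997 for both, 1146 genes) and for ESRRA AUP1 (0.995) and MLX (0.993), with 952 genes. NR5A2 had FRK (0.996) and KLHL5 (0.993), with 483 genes, and NR1H4 had TGDS (0.994) and ALDH1A1 (0.993), with 248.

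Fewer genes resembled the rest. NR1H2 had ARFGAP2 (0.973) and ABCF2 (0.972), with 9 genes over 0.95, and NR0B2 had FITM2 (0.958) and TOLLIP (0.936), with 1. For RXRB the nearest were JMJD6 and RRP8 (0.897 for both) and for NR1I2 SLC25A13 (0.888) and FBXO9 (0.881), with none over 0.95. The nearest genes of NR3C1, NR5A2 and NR1H4 had GC contents of 37.3% to 41.9%, and those of RXRA 62.4% and 62.9%.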

How the data were processed

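The authors counted read pairs over the exons of each gene (hg19) with featureCounts 2.0.1, per the file headers, and deposited these whole counts. The headers set no option for strand, multimapping or overlap. Alignment with Bowtie 0.12.2 is stated per the submitters' processing notes. The sources used here name no trimming, library kit or batch, and RNA extraction is described in 2 ways, per the labels' protocols, without saying which libraries each covers.

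Group means over all 12 libraries were fitted together by robust quasi-likelihood (edgeR 4.0.16 under R 4.3.3, TMM factors, filterByExpr with a minimum count of 10). The Benjamini-Hochberg adjustment ran over the 14435 genes that passed. The fit with trends removed used natural splines with 5 degrees of freedom each on GC content and log2 length with their product, fitted per library as offsets. GC content came from the longest transcript in GENCODE (GRCh38), matched by identifier for 14280 genes tested. DESeq2 1.42.0 and limma 3.58.1 served as alternatives, with other factors, filters, the replicate number as a block, and the omission of each library. The reported edgeR fit was run on simulated counts, with 200 genes changed for H89 in WT and 200 in S434A against WT. Those counts held no dependence on GC content or length, and the fit with trends removed was not tested on them. Members, lists and the rule for named genes were chosen with earlier results of these data known. The rule names every member, up to 3 genes of each list with the smallest p among those called in the comparison described (H89 in WT), and the 2 genes with plain symbols, at least 2 CPM on average and the highest r with each member.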

Additional observations from a re-analysis of the deposited data

Results flagged for a closer look

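The effect of H89 differed between S434A and WT, by the test of that difference in edgeR, for 27 of the named genes, 3 of them receptors of the 10. The values below are the H89 effect in S434A minus that in WT on the log2 scale, and 48% of all genes tested passed the same test. The other 24 genes, from the lists, were named for their small p for H89 in WT, an effect that is part of this difference. Their number therefore cannot be set against that share. RXRA was at -1.17 (1.27 in WT and 0.10 in S434A), NR1H3 at 0.75 (-1.25 and -0.49) and ESRRA at 0.43 (-0.69 and -0.26). With GC and length trends removed RXRA was at -0.02 (adjusted p = 0.893), and the other 26 kept an adjusted p under 0.05, several of them at other sizes. ESRRA was then at 0.87 and NR1H3 at 1.05, FASN at -0.83, SCARB1 at -0.68, EP300 at -1.14, GSTA1 at 0.90, GSTA2 at 0.63 and SULT2A1 at 1.05. SLC27A5 was at 1.76, SLC51B at 1.24, ERRFI1 at -1.01, NR2F1 at -0.67, PRMT1 at 1.14, STIP1 at 0.69 and ATP5F1B at 0.30.

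Among the other receptors NR2F2 was at -1.47, NR6A1 at -1.23 and NR2F1 at -1.16. The coregulators EP300, NCOA6 and PRMT1 were at -1.84, -1.67 and 0.71. Bile acid genes gave 1.17 for SLC27A5 and 1.80 for SLC51B. Liver X receptor targets gave 1.28 for APOC1, -0.87 for SCD and -2.20 for FASN. The pregnane X receptor targets GSTA1, GSTA2 and SULT2A1 were at 1.86, 1.76 and 1.87. Glucocorticoid receptor targets gave -0.44 for ERRFI1 and 0.46 for CEBPD, and the chaperone genes DNAJB1, STIP1 and HSPA8 gave 0.52, 0.39 and 0.89. NR5A2 targets gave 0.82 for APOA1 and -1.37 for SCARB1, and the ESRRA targets ATP5F1B, COX5B and SDHB gave 0.60, 1.27 and 1.21.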

How the results depend on the processing

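Of the 10 receptors' counts of calls, those without a mention here stayed within 1.5 times the reported count. In S434A against WT (5 calls, 2 past 2-fold), dropping the filter on low counts gave 3 calls and 1 past 2-fold, fitting only the groups compared gave 3 and 1, and removing the GC and length trends gave 0 past 2-fold, as it did with the replicate number as a block or with S434A replicate 1 left out as well. For H89 in WT (5 and 4), fitting only the groups compared gave 9 calls, and the 3 fits with trends removed gave 8, 8 with the block and 9 without S434A replicate 1, each with 2 past 2-fold. For H89 in S434A (6 and 2), limma-voom with weights by group gave 3 calls, only the groups compared 2 calls and 1 past 2-fold, and the 3 fits with trends removed 0 past 2-fold. The difference of H89 effects (3 and 1) gave 6 calls in each of the 3 fits with trends removed, 2 past 2-fold with limma-voom, with and without weights, and 0 past 2-fold with trends removed and S434A replicate 1 left out. The cause was not tested.

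Leaving out each library in turn gave 3 to 6 calls and 0 to 2 past 2-fold in S434A against WT, 5 to 7 and 3 to 4 for H89 in WT, 5 to 7 and 2 to 3 for H89 in S434A, 0 and 0 for S434A against WT with H89, and 3 to 5 and 1 to 2 for the difference of effects. Where this leaves the 2 libraries of a group, the spread is pooled over all groups. Signs changed under it for differences near 0, with ranges of -0.047 to 0.021 (ESRRA), -0.057 to 0.029 (NR0B2), -0.009 to 0.18 (NR1H4), -0.16 to 0.032 (NR3C1) and -0.095 to 0.099 (NR5A2) in S434A against WT with H89. In S434A against WT they were -0.051 to 0.15 (NR0B2), -0.33 to 0.68 (NR3C1) and -0.74 to 0.015 (NR5A2). For H89 in WT they were -0.17 to 0.042 (NR0B2) and -0.024 to 0.24 (NR1I2), and for H89 in S434A -0.19 to 0.066 (NR0B2) and -0.070 to 0.22 (RXRA). For the difference of effects they were -0.17 to 0.034 (NR0B2), -0.77 to 0.24 (NR3C1), -0.017 to 0.74 (NR5A2) and -0.060 to 0.061 (RXRB).

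Other sign changes came mostly with the trends removed, given as that fit, the same with the block and the same without S434A replicate 1. In S434A against WT these were -0.43, -0.43 and -0.38 for NR1H2, -0.039, -0.039 and -0.026 for NR1I2, and 0.11, 0.095 and 0.011 for NR5A2. For H89 in S434A they were 0.17, 0.17 and 0.11 for RXRB, 0.36, 0.36 and 0.41 for NR0B2, 0.073, 0.077 and 0.031 for ESRRA, and -0.20 for NR1H4 in the last fit alone. With H89 present, NR1H4 gave -0.011, -0.011 and -0.016, and ESRRA 0.0 and 0.001 in the first 2. For the difference of effects they were 0.34, 0.34 and 0.29 for RXRB, 0.53, 0.53 and 0.48 for NR1H2, and -0.15, -0.14 and -0.052 for NR5A2.

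The remaining sign changes concern differences without a call in the reported fit. NR0B2 in S434A against WT gave -0.006 with DESeq2's size factors (RLE) and with DESeq2. For H89 in WT it gave -0.12 with either, -0.077 with upper-quartile factors and -0.12 without the filter. With only the groups compared it gave -0.11 for H89 in WT (adjusted p = 0.045), past the threshold. NR3C1 in S434A against WT gave -0.058 with limma-voom and -0.057 with its weights, RXRB 0.11 with only the groups compared, and RXRA for H89 in S434A -0.022 with upper-quartile factors. With H89 present, NR5A2 gave 0.009 with upper-quartile factors and 0.008 without the filter, and ESRRA 0.0 and 0.001. The difference of effects of RXRB was 0.034 with RLE factors, 0.032 with DESeq2 and 0.031 without the filter.

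Replicate numbers showed no consistent pairing of the libraries: correlations of the deviations of same-numbered libraries ran from -0.15 to 0.47. Differently numbered libraries were not compared in this way, so a pairing of some libraries was not tested. With the replicate block the receptors called numbered 5, 5, 6, 0 and 3 in the 5 comparisons in the order above, and the sign changed only for NR5A2 in S434A against WT with H89, to 0.003. Over all genes, fitting only the groups compared gave 1171 higher and 1572 lower for H89 in S434A, against 4224 and 3280, and 4493 higher and 2478 lower in S434A against WT, against 4186 and 4232. With trends removed 735 genes were higher and 883 lower past 2-fold in S434A against WT, against 1677 and 1635, and 382 and 534 for H89 in S434A, against 2201 and 339.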
